A study of Rattus norvegicus with 20 samples.

Results

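The genes described here are the Rab GTPases measured in the mPFC (medial prefrontal cortex) of LSD-treated and saline-treated rats. They were chosen by their symbol, which is Rab followed by a number and at most a letter and a further digit, and by a minimum of 5 reads in at least 10 of the 20 libraries. Of 58 matching symbols, 54 met that minimum, among 16605 genes that met it in all. The 4 that did not were Rab5a and Rab25 with 0 to 3 reads per library, Rab17 with 0 to 1 and Rab19 with 0 to 5. Rab39b and Rab41 were not analysed here.

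Male Sprague-Dawley rats, 6 to 8 weeks of age when treatment began according to the labels, were injected i.p. on alternate days over 90 days. The LSD group received LSD (lysergic acid diethylamide, a serotonin receptor agonist) at 0.16 mg/kg and the Saline group received sterile saline, and the labels give 3 weeks without injections before the tissue was taken. The methods of the study give an older age and a longer interval, for both groups alike. Each library holds poly(A)-selected RNA from the mPFC of 1 rat, with 10 rats per group, so the spread between libraries is the spread between animals.

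Rab proteins are small GTPases that mark membranes. In the GTP-bound form a Rab sits on its organelle or vesicle and recruits effectors such as tethers and motors, and after GTP hydrolysis it is taken back to the cytosol. In neurons the Rab3 and Rab27 proteins act in the release of synaptic and dense-core vesicles, while Rab5, Rab4 and Rab11 proteins carry receptors through early and recycling endosomes.

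Expression of Rab genes differed between LSD-treated rats and controls in both directions, with fewer genes higher than lower. Of the 54 genes, 13 passed an adjusted p of 0.05 in edgeR's quasi-likelihood test, fitted over all genes (24.1%, against 15.0% of all genes tested). Rab3c, Rab27b and Rab30 were up-regulated, which is 5.56% of the family against 6.48% of all genes. Rab3a, Rab3b, Rab3d, Rab4a, Rab5c, Rab8a, Rab11b, Rab29, Rab35 and Rab40c were down-regulated, which is 18.5% against 8.54% of all genes. No test of the family as a whole was run, so these shares are a description.

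The differences were small. On the log2 scale the genes that fell did so by 0.12 to 0.28, and the genes that rose did so by 0.33 to 0.46. The median log2 fold change was -0.05 over the family and 0.00 over all genes, with 35 Rab genes below 0 and 19 above. Of the 41 genes that did not pass the threshold, 24 had a 95% confidence interval that lay within 0.25 of 0 in both directions. These included Rab1a, Rab5b, Rab7a, Rab11a and Rab27a. For the other 17 the interval reached beyond that bound. Within groups the genes varied little, with a median coefficient of variation of 7.91% in LSD-treated rats and 10.1% in controls.

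**Figure D1:**
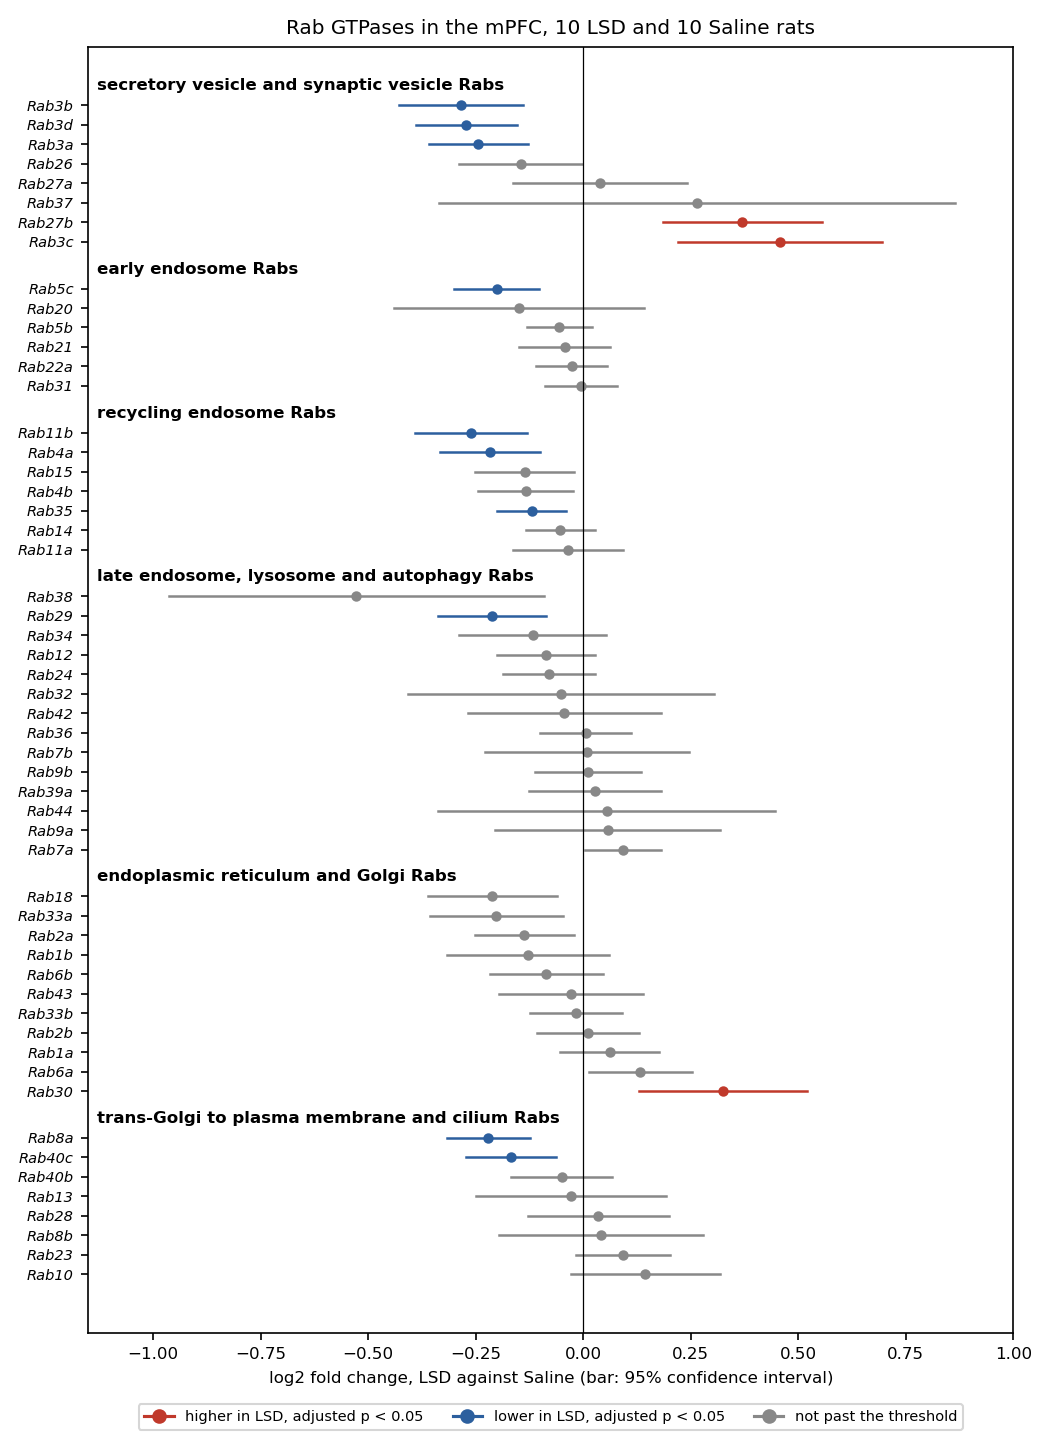
Log2 fold change (x axis, LSD against Saline) of the 54 Rab genes, grouped by the compartment in which each protein is known to act, with points for the edgeR estimate, bars for its 95% confidence interval and colours for the call. The 3 genes higher in LSD-treated rats lie between 0.33 and 0.46, the 10 lower genes lie between -0.28 and -0.12, and Rab38 and Rab37 have the widest intervals.

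LSD libraries held 16346629 to 25552681 reads on genes and Saline libraries 11098076 to 24201351, and the means differed (two-sided exact permutation test, p = 0.0162). With reads drawn down to 11098076 in every library, 3 Rab genes were higher and 8 were lower. Of all genes, 968 were then higher and 1209 lower (13.1% called, against 15.0% at full depth). The balance of directions also moved with the scaling. With TMM factors 1076 of all genes were higher and 1418 lower, whereas with total reads as the only scaling 1504 were higher and 858 lower, and 3 Rab genes were then higher and 7 lower. All 54 estimates are therefore relative to TMM scaling, under which the median gene did not move.

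The tissue was compared with cell type markers. Neuron markers summed to between 8597 and 10339 RPM (reads on a gene relative to all reads on genes of the library, scaled by TMM) in LSD-treated rats and between 8492 and 11442 RPM in controls, and 1 of 10 was higher (Gad2) and 2 were lower (Tubb3, Slc32a1). Astrocyte markers were higher for 1 of 7 (Slc1a2), and none of 7 microglial, 7 endothelial and pericyte or 3 choroid plexus markers passed the threshold. Oligodendrocyte markers summed to between 2354 and 5979 RPM in LSD-treated rats and between 2388 and 7724 RPM in controls, and 1 of 7 was lower (Cldn11), with -0.36 as the median log2 fold change. Markers of striatal projection neurons summed to between 102 and 217 RPM against 119 and 336 RPM, and 1 of 6 was lower (Gpr6), with a median of -0.82. No marker measured was at 0 in all libraries. The part of these markers in the Rab results was not tested. In bulk tissue, fewer cells of a type and less RNA per cell cannot be told apart.

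The Rab3 genes parted into those that fell and Rab3c, which rose. Rab3 proteins are synaptic and secretory vesicle Rabs of regulated exocytosis, and Rab3a is the member best studied at synapses. Levels in the following are TMM-normalised RPM, which are not adjusted for gene length and are therefore compared between groups of rats, not between genes. Rab3a lay between 752 and 952 RPM with a median of 788 in LSD-treated rats and between 791 and 1039.6 with a median of 979 in controls. All 10 LSD-treated rats were below the median control, and 5 were below every control. The log2 fold change of Rab3a was -0.24 (SE 0.0556, adjusted p = 0.00884).

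Rab3b ranged from 45.3 to 70.0 RPM with a median of 59.9 in LSD-treated rats and from 62.7 to 82.7 with a median of 71.1 in controls. Its log2 fold change was -0.28 (SE 0.0697, adjusted p = 0.0117), and 6 LSD-treated rats were below every control. Rab3d gave the smallest p of the family. It ranged from 20.8 to 26.8 RPM with a median of 24.2 in LSD-treated rats and from 26.4 to 32.0 with a median of 29.0 in controls, and its log2 fold change was -0.27 (SE 0.0565, adjusted p = 0.00663). The groups of Rab3d overlapped little, as 7 LSD-treated rats were below every control and 9 controls were above every LSD-treated rat.

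Rab3c went the other way and had the highest estimate in the family. It ranged from 31.0 to 47.8 RPM with a median of 38.7 in LSD-treated rats and from 15.4 to 34.1 with a median of 30.0 in controls. The log2 fold change was 0.46 (SE 0.115, adjusted p = 0.0131), equal to 37.4% more. Of the LSD-treated rats, 8 were above every control, and the lowest control was Saline 9. Without Saline 9 the call of Rab3c was kept, as it was without any other rat, with log2 fold changes from 0.39 to 0.50.

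To place the Rab3 genes beside their start sites, the promoters of these 4 genes are shown, since they are the paralogues that changed in opposite directions. Each is the reference sequence of RefSeq on the GRCr8 assembly from 250 bases before to 50 bases after the annotated start, 5′ to 3′ on the strand of the gene. They lie at chr16:18722224-18722523 (minus strand, Rab3a), chr5:128858841-128859140 (plus strand, Rab3b), chr2:43575894-43576193 (minus strand, Rab3c) and chr8:28725218-28725517 (minus strand, Rab3d). Capitals mark matches to GGGCGG on either strand (CCGCCC on the other), the core of the GC box bound by Sp factors.
Rab3a: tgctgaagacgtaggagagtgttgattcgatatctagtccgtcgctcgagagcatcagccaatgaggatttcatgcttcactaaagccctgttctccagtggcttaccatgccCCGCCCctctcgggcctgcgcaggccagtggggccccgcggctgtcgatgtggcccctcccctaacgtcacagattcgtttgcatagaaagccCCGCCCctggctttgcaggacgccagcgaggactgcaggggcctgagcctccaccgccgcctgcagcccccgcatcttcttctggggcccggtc
Rab3b: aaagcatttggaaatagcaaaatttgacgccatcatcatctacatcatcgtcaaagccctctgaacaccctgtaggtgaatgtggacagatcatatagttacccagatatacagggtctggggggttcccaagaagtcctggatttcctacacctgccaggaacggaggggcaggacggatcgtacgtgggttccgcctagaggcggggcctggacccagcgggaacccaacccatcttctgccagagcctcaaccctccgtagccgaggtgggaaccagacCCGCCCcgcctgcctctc
Rab3c: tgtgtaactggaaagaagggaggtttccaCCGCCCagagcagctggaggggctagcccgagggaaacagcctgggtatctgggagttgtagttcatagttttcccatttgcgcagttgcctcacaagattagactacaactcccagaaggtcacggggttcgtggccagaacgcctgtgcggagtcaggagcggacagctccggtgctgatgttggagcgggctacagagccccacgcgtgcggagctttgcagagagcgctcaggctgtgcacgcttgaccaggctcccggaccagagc
Rab3d: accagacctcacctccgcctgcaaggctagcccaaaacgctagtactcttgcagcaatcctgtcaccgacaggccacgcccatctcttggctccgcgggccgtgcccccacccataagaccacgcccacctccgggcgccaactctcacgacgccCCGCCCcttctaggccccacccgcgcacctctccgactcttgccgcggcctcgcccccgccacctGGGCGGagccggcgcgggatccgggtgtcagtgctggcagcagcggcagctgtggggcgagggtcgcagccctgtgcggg
The promoters of Rab3a and Rab3d held 2 matches each, and those of Rab3b and Rab3c held 1 each. The E-box CACGTG, the CRE TGACGTCA, the NRF1 core GCGCATGC and the ETS core CCGGAAG had no match in any of the 4. GC content was 62.7% for Rab3a, 56.3% for Rab3b, 59.7% for Rab3c and 71.0% for Rab3d. 
Whether paralogues differed from each other was tested on the log2 ratio of their RPM within each rat, by exact two-sided permutation over all 184756 assignments of 10 of the 20 rats. There were 18 pairs of genes that share a number, and 6 passed a Benjamini-Hochberg adjusted p of 0.05. Several pairs share a gene, so they are not independent. The ratio of Rab3c to Rab3d lay between 0.42 and 1.18 in LSD-treated rats and between -0.96 and 0.32 in controls, with no overlap. Its mean differed by 0.75 (SE 0.155, n = 10 per group, exact permutation p = 1.08e-05, which is the smallest this test can give, adjusted p = 0.000195).

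Rab3a to Rab3c differed by -0.72 (SE 0.152, exact permutation p = 4.33e-05, adjusted p = 0.000325) and Rab3b to Rab3c by -0.77 (SE 0.165, exact permutation p = 5.41e-05, adjusted p = 0.000325). For Rab3a to Rab3c 7 of 10 LSD-treated rats were below every control, and for Rab3b to Rab3c 9 of 10 were. By contrast the ratios among the genes that fell moved little, with 0.05 for Rab3a to Rab3b (SE 0.0827, exact permutation adjusted p = 0.651), 0.03 for Rab3a to Rab3d (SE 0.0536, exact permutation adjusted p = 0.651) and -0.02 for Rab3b to Rab3d (SE 0.0971, exact permutation adjusted p = 0.849). Rab3c therefore differed from each of its paralogues, and a difference among the other Rab3 genes was not detected. These ratios were not corrected for gene span, which is 223 kb for Rab3c, 4.11 kb for Rab3a, 67.1 kb for Rab3b and 10.7 kb for Rab3d.

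**Figure D2:**
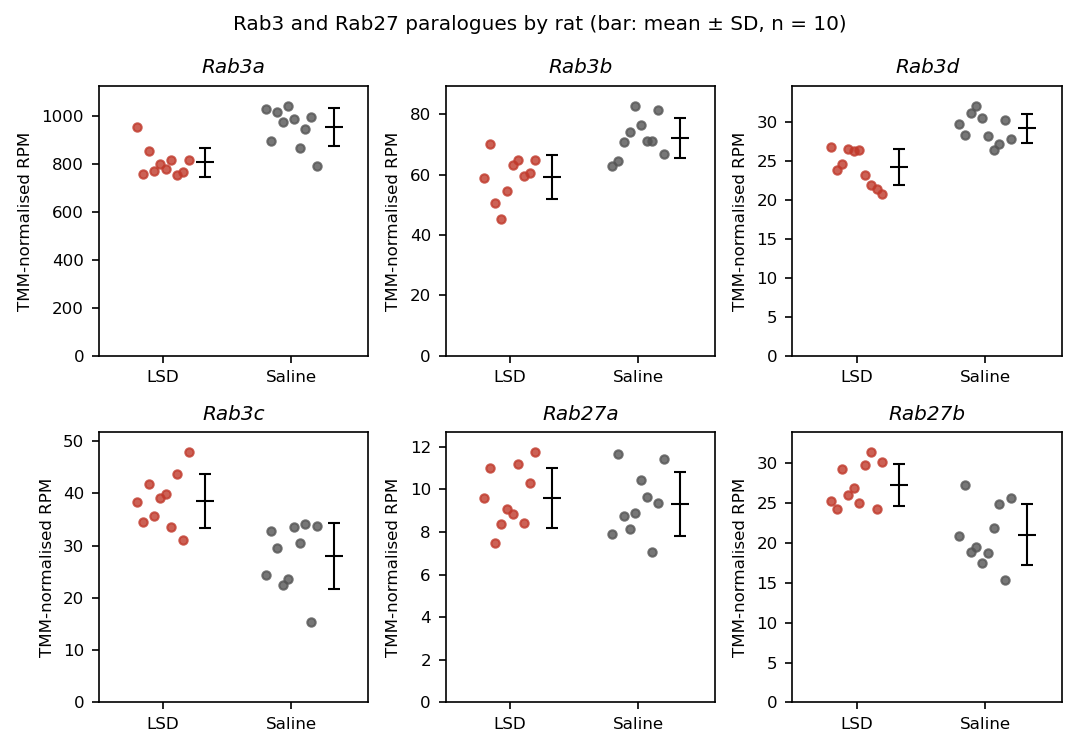
TMM-normalised RPM (y axis, from 0) of the Rab3 and Rab27 genes in each of the 10 LSD-treated and 10 control rats, with bars for the mean ± SD beside the points. Rab3a, Rab3b and Rab3d sit lower in LSD-treated rats, Rab3c and Rab27b sit higher, and the groups of Rab27a overlap.

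Rab27b, which acts in the docking and release of secretory and dense-core vesicles, was also up-regulated. It ranged from 24.3 to 31.3 RPM with a median of 26.5 in LSD-treated rats and from 15.4 to 27.3 with a median of 20.2 in controls. No LSD-treated rat fell below the control median, and 4 exceeded every control (log2 fold change 0.37, SE 0.0894, adjusted p = 0.0111). Its paralogue Rab27a, known for melanosome transport and secretion in other cells, ranged from 7.47 to 11.7 RPM in LSD-treated rats and from 7.06 to 11.6 in controls (log2 fold change 0.04, adjusted p = 0.833). The ratio of Rab27a to Rab27b was lower in LSD-treated rats by 0.34 on the log2 scale (difference -0.34, SE 0.123, exact permutation p = 0.0139, adjusted p = 0.0417).

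Of the 8 secretory and synaptic vesicle Rabs, 2 thus rose (6.48% of all genes did), 3 fell (8.54% did) and 3 did not pass the threshold, and the median of their log2 fold changes was -0.05. Those that did not pass were Rab27a, Rab26 and Rab37. Rab37, a Rab of secretory granules, had 10 to 94 reads per library, and its interval ran from -0.33 to 0.86, too wide to place it.

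**Figure D3:**
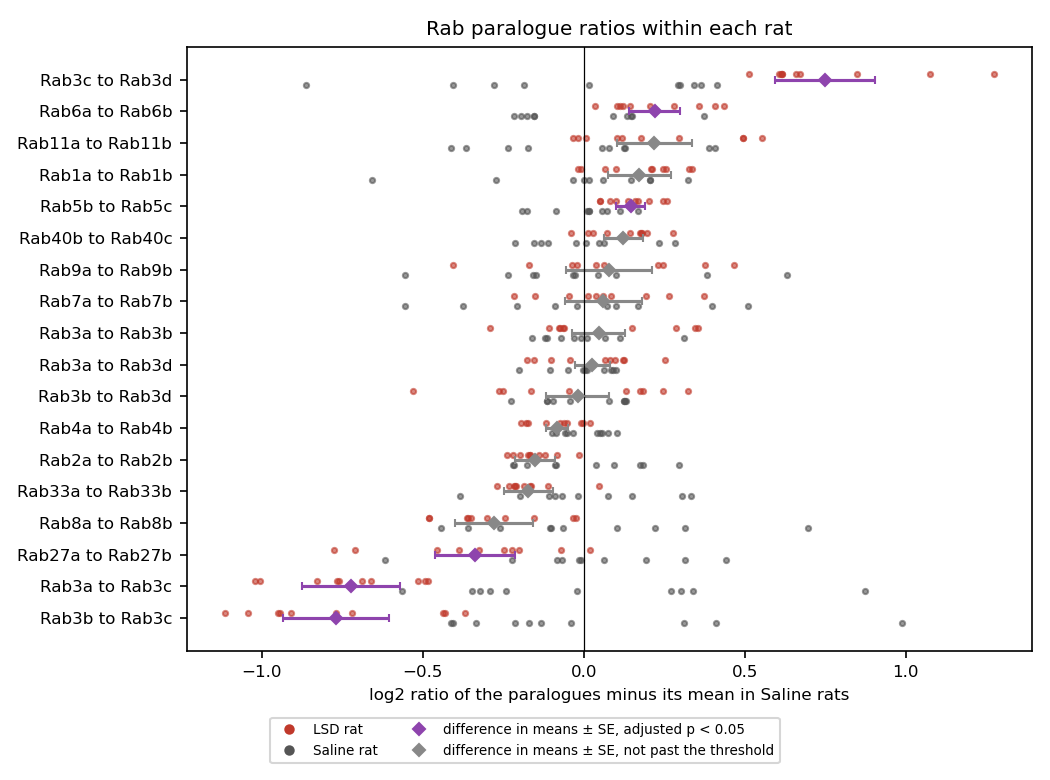
Log2 ratio of paralogues within each rat (x axis, minus the mean ratio of the controls) for the 18 pairs of Rab genes that share a number, with circles for rats and diamonds for the difference in means ± SE (n = 10 per group). The 3 pairs that hold Rab3c lie farthest from 0, at 0.75, -0.72 and -0.77.

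Of 6 early endosome Rabs, 1 was lower (8.54% of all genes were) and none was higher, and the median log2 fold change was -0.05. Rab5 proteins drive the fusion of endocytic vesicles with early endosomes, and the gene that passed was Rab5c. It ranged from 144 to 182 RPM with a median of 156 in LSD-treated rats and from 161 to 196 with a median of 184 in controls, and 8 LSD-treated rats were below every control. Its log2 fold change was -0.20 (SE 0.0478, adjusted p = 0.0102). Rab5b ranged from 226 to 258 RPM with a median of 238 against 234 to 264 with a median of 249, and its log2 fold change was -0.06 (adjusted p = 0.317). The ratio of Rab5b to Rab5c was higher by 0.15 in LSD-treated rats (SE 0.0443, exact permutation p = 0.0033, adjusted p = 0.0149). The other 4 genes, Rab20, Rab21, Rab22a and Rab31, had log2 fold changes from -0.15 to -0.01 and did not pass.

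Reads on Rab5a itself were nearly absent, while Rab5al1, a symbol outside the rule that is named as a copy of Rab5a, had 158 to 657 reads per library. Rab5al1 ranged from 19.7 to 24.4 RPM with a median of 22.7 in LSD-treated rats and from 14.6 to 26.2 with a median of 18.3 in controls. Its log2 fold change of 0.23 did not pass the threshold (SE 0.0803, adjusted p = 0.0520). How reads were divided between these copies was not tested, so the level of Rab5a is uncertain.

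Recycling endosome Rabs were lower for 3 of 7 genes (8.54% of all genes were), with a median log2 fold change of -0.13. All 7 estimates were below 0 with TMM scaling, but Rab11a was at 0.0095 with total reads as scaling. Rab11b, a Rab of the slow recycling route that is abundant in brain, ranged from 321 to 394 RPM with a median of 337 in LSD-treated rats and from 344 to 481 with a median of 412 in controls. All LSD-treated rats were below the median control (log2 fold change -0.26, SE 0.0629, adjusted p = 0.0108). Rab11a, its paralogue, spanned 66.3 to 88.4 RPM in LSD-treated rats and 66.3 to 83.9 in controls (log2 fold change -0.03, adjusted p = 0.751). The ratio of Rab11a to Rab11b differed by 0.22 (SE 0.116, exact permutation p = 0.0754, adjusted p = 0.113) and did not pass.

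Rab4a, of the fast recycling route, ranged from 55.3 to 72.5 RPM with a median of 61.5 in LSD-treated rats and from 62.8 to 83.3 with a median of 71.2 in controls. Its log2 fold change was -0.22 (SE 0.0567, adjusted p = 0.0158), and 9 of 10 LSD-treated rats were below the median control. Rab35, which acts in recycling to the plasma membrane and in neurite growth, showed the weakest change that passed the threshold. It ranged from 91.6 to 107 RPM with a median of 94.2 against 95.1 to 110.3 with a median of 104 (log2 fold change -0.12, SE 0.0389, adjusted p = 0.0408). The call of Rab35 was lost in 5 of 8 other settings, with adjusted p up to 0.178. It was also lost in 16 of 20 fits that left out 1 rat, with adjusted p up to 0.0755. The fits that kept it were those without LSD 1, Saline 2, Saline 8 or Saline 10. Rab35 is the least secure of the 13 calls.

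Among 14 Rabs of late endosomes, lysosomes and autophagy, 1 was lower (8.54% of all genes were) and none was higher. The gene that passed was Rab29. Rab29 is a Rab of the Golgi and lysosomes that works with the kinase Lrrk2. It ranged from 31.7 to 38.1 RPM with a median of 33.8 in LSD-treated rats and from 33.9 to 46.6 with a median of 39.2 in controls, and fell by 0.21 on the log2 scale (SE 0.0611, adjusted p = 0.0239). All LSD-treated rats were below the median control. The call of Rab29 was lost in 3 of 8 other settings, with a correction for gene span (-0.13, adjusted p = 0.120), without the filter on low counts (adjusted p = 0.0601) and with total reads as scaling (-0.17, adjusted p = 0.0610), and also without Saline 5 (adjusted p = 0.0503). Rab7a, the main Rab of late endosomes, ranged from 182 to 205 RPM against 160.2 to 207 (log2 fold change 0.09, SE 0.0426, adjusted p = 0.142). Rab38, a Rab of lysosome-related organelles, had the lowest estimate of the family at -0.53, but it was counted with only 4 to 15 reads per library and did not pass (SE 0.211, adjusted p = 0.0899).

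Of 11 Rabs of the endoplasmic reticulum and Golgi, 1 was higher (6.48% of all genes were) and none was lower. The gene that passed was Rab30. Rab30, a Golgi Rab, ranged from 24.8 to 33.5 RPM with a median of 26.1 in LSD-treated rats and from 15.4 to 30.7 with a median of 21.5 in controls. Every LSD-treated rat exceeded the control median, and 8 controls were below every LSD-treated rat (log2 fold change 0.33, SE 0.0942, adjusted p = 0.0242). Rab1a and Rab1b, which act between the endoplasmic reticulum and the Golgi, had log2 fold changes of 0.06 (adjusted p = 0.485) and -0.13 (adjusted p = 0.356). Rab18, a Rab of lipid droplets and the endoplasmic reticulum that was named here after its value was seen, lay just outside the threshold with -0.21 (SE 0.0728, adjusted p = 0.0522).

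The Golgi pair Rab6a and Rab6b showed a shifted ratio although neither gene passed on its own. The log2 fold changes were 0.13 for Rab6a (adjusted p = 0.117) and -0.09 for Rab6b (adjusted p = 0.385), the form that is abundant in neurons. The ratio of Rab6a to Rab6b was higher by 0.22 in LSD-treated rats (SE 0.0785, exact permutation p = 0.0138, adjusted p = 0.0417), and in 10 of 10 LSD-treated rats it exceeded the control median. In GRCr8 the gene of Rab6a overlaps those of Mrpl48 and Plekhb1, and whether reads were counted by strand is not given in the sources used here. The same holds for Rab3a with Mpv17l2 and for Rab40c with Mettl26.

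Rabs of the route from the trans-Golgi to the plasma membrane and the cilium were lower for 2 of 8 genes (8.54% of all genes were), Rab8a and Rab40c. Rab8a, which acts in this route and in dendritic receptor delivery, ranged from 36.8 to 44.9 RPM with a median of 39.7 in LSD-treated rats and from 42.9 to 54.8 with a median of 45.4 in controls. Of the LSD-treated rats, 9 were below every control (log2 fold change -0.22, SE 0.0468, adjusted p = 0.0068). Rab40c, a Rab with a SOCS box that serves a ubiquitin ligase, ranged from 33.6 to 39.4 RPM with a median of 36.9 against 34.8 to 47.0 with a median of 40.9 (log2 fold change -0.17, SE 0.0504, adjusted p = 0.0287). The call of Rab40c was lost in 7 of 20 fits that left out 1 rat (LSD 2, LSD 4, LSD 7, LSD 10, Saline 3, Saline 4 or Saline 5), with adjusted p up to 0.0605. It was also lost in 3 of 8 other settings, without the filter on low counts (adjusted p = 0.0862), at equal depth (adjusted p = 0.0764) and with total reads as scaling (adjusted p = 0.0676). The median of these 8 genes was 0.00.

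The proteins that load, unload and read Rabs were then described from a list of 143 genes, of which 136 were measured. Of these, 21 were higher (15.4%, against 6.48% of all genes) and 10 were lower (7.35%, against 8.54%). With a correction for gene span, 7 were higher and 10 lower. The counts over all genes were then 605 higher and 1112 lower, against 1076 and 1418 without it. Rab effectors, which bind the GTP form, were higher for 10 and lower for 5 of 51, exchange factors for 5 and 2 of 36, GTPase-activating proteins for 4 and 2 of 38, and factors of prenylation and membrane extraction for 2 and 1 of 8. None of the 3 genes of Rab phosphorylation (Lrrk1, Lrrk2 and Ppm1h) passed.

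The early endosome tether Eea1, an effector of Rab5, separated the groups. It ranged from 29.4 to 39.3 RPM with a median of 31.9 in LSD-treated rats and from 15.96 to 28.7 with a median of 24.5 in controls, so that every LSD-treated rat was above every control (log2 fold change 0.46, SE 0.0958, adjusted p = 0.00666). Rab5c thus fell while the tether of its compartment rose. Other effectors of early endosomes included Appl1, which rose by 0.24 (adjusted p = 0.0410). Rabep1 (0.22), Rbsn (0.12), Rabep2 (-0.04) and Appl2 (-0.02) did not pass. Among effectors of recycling endosomes, Rab11fip2 and Myo5a rose, while Rab11fip1, Rab11fip3, Rab11fip4, Rab11fip5 and Myo5b did not pass, their log2 fold changes lying between -0.13 and 0.05. Rab11fip2, which links Rab11 to myosin, ranged from 13.9 to 19.7 RPM against 10.1 to 16.5 (log2 fold change 0.35, SE 0.0865, adjusted p = 0.0119). Myo5a, the myosin Va motor that carries vesicles on actin, ranged from 225 to 298 RPM against 101 to 253 (log2 fold change 0.41, SE 0.106, adjusted p = 0.0156).

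Ehbp1, a Rab8 family effector on tubular endosomes, rose by 0.27 (adjusted p = 0.00632) and the inositol phosphatase Ocrl by 0.22 (adjusted p = 0.0165), a call that was lost at equal depth (adjusted p = 0.0608) and with a correction for gene span (adjusted p = 0.0593). Among enzymes of the GTPase cycle, the GTPase-activating protein Rabgap1l rose by 0.29 (adjusted p = 0.0119), the TBC domain protein Evi5 by 0.24 (adjusted p = 0.0191) and Ric1, part of an exchange factor for Rab6, by 0.20 (adjusted p = 0.0187). The Rab9 effector Rabepk fell by 0.30 (adjusted p = 0.00623), and Rabac1, the prenylated Rab acceptor, fell by 0.23 (adjusted p = 0.0186). Appl1 aside, 10 genes past the threshold were named here. For 9 of these 10 genes every LSD-treated rat lay on the same side of the median control, and for Evi5 9 of 10 did. The 10 genes were picked by the smallest p from the same values, so this is no separate evidence.

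**Figure D4:**
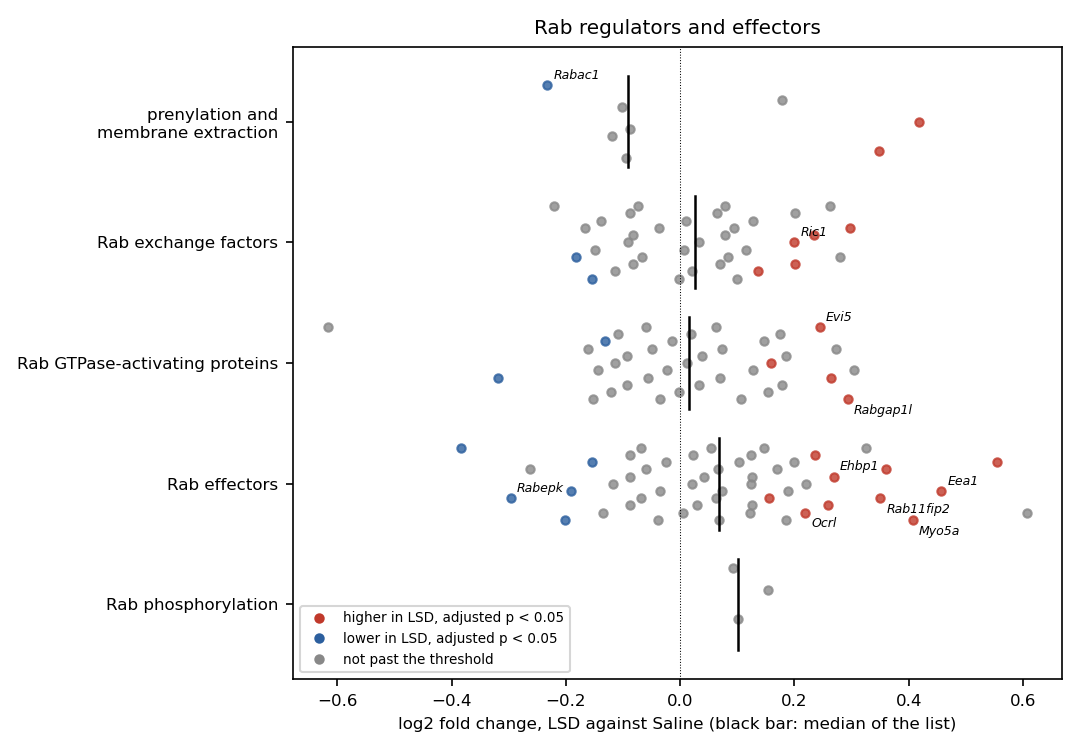
Log2 fold change (x axis, LSD against Saline) of the 136 measured regulators and effectors of Rab proteins by class, with red and blue points for genes past the threshold, grey points for the rest and black bars for the median of the class. Calls lie on both sides in every class but phosphorylation, with 21 higher and 10 lower in all.

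The span of the genes moved with these directions. Across 14271 genes with a span in the GRCr8 annotation, the log2 fold change and the span had a Spearman correlation of 0.36, given as a description, since genes are not independent replicates and share the libraries. The up-regulated Rab genes spanned 223 kb (Rab3c), 199 kb (Rab27b) and 94.6 kb (Rab30). The 10 down-regulated genes spanned 4.11 to 67.1 kb, and the 41 others 1.67 to 135 kb with a median of 24.2 kb. Regulators and effectors that rose had a median span of 133 kb, those that fell one of 16.01 kb.

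With a correction for the relation to span in each library, the calls of Rab3c (0.36, adjusted p = 0.0267) and Rab27b (0.28, adjusted p = 0.0341) were kept, while that of Rab30 was lost (0.25, adjusted p = 0.0761). Rab3a (-0.16, adjusted p = 0.0455), Rab3b (-0.35, adjusted p = 0.00978) and Rab3d (-0.23, adjusted p = 0.0133) still fell. The paralogue ratios, such as that of Rab27a (53.9 kb) to Rab27b, were not tested with this correction. Rab29 and Rab35 did not pass. In all 2 Rab genes were then higher and 10 lower, with Rab18 and Rab2a past the threshold in addition. Of the regulators, 7 were higher in place of 21 and 10 were lower. Over all genes, 605 were then higher in place of 1076, and 1112 were lower in place of 1418. Eea1 (0.37, adjusted p = 0.0115), Rab11fip2 (0.25, adjusted p = 0.0446), Myo5a (0.33, adjusted p = 0.0247) and Rabepk (-0.28, adjusted p = 0.0083) kept their calls, and Ehbp1, Rabgap1l, Ocrl, Rabac1, Ric1 and Evi5 lost them.

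**Figure D5:**
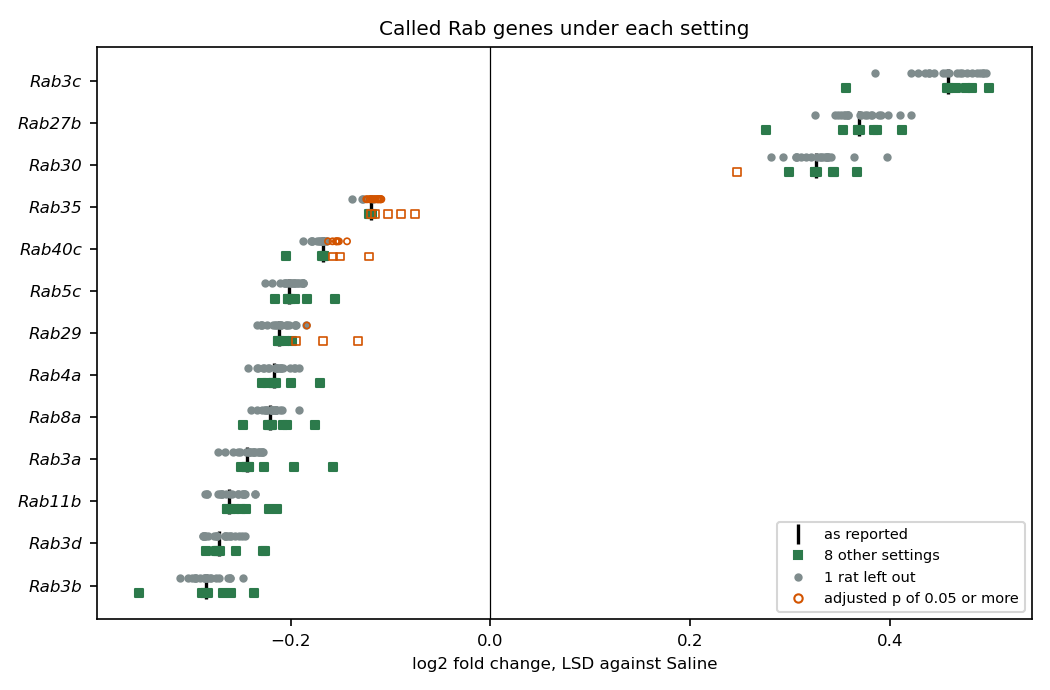
Log2 fold change (x axis, LSD against Saline) of the 13 Rab genes past the threshold, with a vertical bar for the reported value, squares for 8 other settings and circles for fits that left out 1 of the 20 rats, open where the adjusted p was 0.05 or more. Open symbols appear for Rab30, Rab35, Rab40c and Rab29 alone, and no value crosses 0.

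The calls of 9 genes, Rab3a, Rab3b, Rab3c, Rab3d, Rab4a, Rab5c, Rab8a, Rab11b and Rab27b, held in all 8 other settings and in all 20 fits that left out 1 rat. Single rats also set some of the ranges above. LSD 1, the LSD-treated rat with the fewest reads, held the highest value of its group for 9 of the 10 down-regulated genes, and Saline 10 held the lowest control value for 6 of them. Without LSD 1 the family had 3 genes higher and 11 lower, and without Saline 10 it had 3 higher and 14 lower. Without Saline 2 there were 5 higher, as Rab6a and Rab7a were added, and 10 lower. Calls over all genes rose as well, from 15.0% with every rat to 17.3% without LSD 1, 18.7% without Saline 10 and 21.4% without Saline 2.

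Promoters of the family were described in the same windows as for the Rab3 genes, with an entry for 43 of the 54 genes, including all 13 past the threshold. Rab1b, Rab2a, Rab2b, Rab22a, Rab23, Rab24, Rab26, Rab33a, Rab36, Rab37 and Rab38 had none. GGGCGG on either strand was found in 36 of the 43 (83.7%), against 59.2% of 11605 promoters of tested genes and 34.9% of 27457 promoters in all. It was found in 10 of 10 down-regulated genes and in 1 of 3 up-regulated genes, Rab3c. CACGTG was found in 3 of 43 (6.98%, against 8.94% of tested genes), CCGGAAG in 3 (6.98%, against 14.9%), GCGCATGC in 2 (4.65%, against 4.58%) and TGACGTCA in 0 (against 2.95%). The median GC content was 63.7% for the family and 60.3% for tested genes. Down-regulated genes had a median of 63.8% with 24.5 CpG, and up-regulated genes one of 58.3% with 12 CpG. Whether the GGGCGG matches follow base composition was not tested. These matches are letters in a window and no measure of binding.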

How the data were processed

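RNA from the mPFC of 20 rats was sequenced with 1 library per rat, and groups were taken from the sample titles. After trimming (TrimGalore), the authors mapped reads to the rn6 assembly (HISAT2), and tallied them by gene (HTSeq-count). The deposited values are these raw counts, which were not normalised. Versions, annotation and strand setting are not given in the sources used here. Of the deposited table, 31038 named genes were used, and 5 unnamed rows, 25.5% to 29.0% of the reads counted in a library, were left out. Depth was 11098076 to 25552681 reads on genes, and precision was set by the spread between 10 rats per group.

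Genes that reached 5 reads in 10 or more libraries were tested with edgeR 4.0.16 in R 4.3.3 (quasi-likelihood F test, TMM scaling, Benjamini-Hochberg over 16605 genes, threshold 0.05). Where an adjusted p is given without a named test, it is from this fit. RPM are TMM-normalised. Paralogue ratios are log2 ratios of RPM + 0.5, tested with numpy 2.4.6. The edgeR test was checked on simulated counts with known changes. It called 66 of 99 genes with a true log2 change of 0.5 in either direction, and 85 of 97 with 1. Of 16290 genes without a change it called 12. Changes smaller than 0.5 were not simulated. Alternatives were DESeq2 1.42.0, median-ratio factors, total reads as scaling, other filters, a replicate block, equal depth, each rat left out and a correction for gene span. This correction averaged each rat's deviations over 50 bins of span, smoothed over 5 bins, on GRCr8 spans found for 85.9% of tested genes, and was centred in each rat.

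By rule, named genes are all Rab genes past the threshold, 15 fixed symbols of Rab1, Rab3, Rab5, Rab7, Rab11, Rab27 and Rab39b, the 3 with the highest and the 3 with the lowest log2 fold change, the 10 regulators with the smallest p past the threshold, and pairs past the threshold or within Rab3, Rab5 and Rab11. Other genes were named after their values were seen. The members, role groups and lists were chosen with earlier results of these data known. Reference sequences and spans are from RefSeq on GRCr8, not on rn6, and proteins were not analysed here.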

Additional observations from a re-analysis of the deposited data

Results flagged for a closer look

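In groups of 10 rats, the highest or lowest value was compared with its nearest neighbour. The set examined included Rab genes inside and outside the rule for named genes. Of 128 such groups, 8 had a gap above Dixon's critical share of the range. About 5% of groups do so by chance. LSD 1 was high for 3 down-regulated genes. It had 952 RPM of Rab3a where the other LSD-treated rats had 752 to 852, 44.9 RPM of Rab8a against 36.8 to 40.9, and 107 RPM of Rab35 against 91.6 to 97.5. Without it the log2 fold changes were -0.27 for Rab3a (adjusted p = 0.0037), -0.24 for Rab8a (adjusted p = 0.00313) and -0.14 for Rab35 (adjusted p = 0.0163).

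The remaining values were in genes that did not pass the threshold. Rab26, a vesicle Rab linked to autophagy, was low in LSD 10 with 54.0 RPM against 69.5 to 82.0, and high in Saline 4 with 102 RPM against 72.4 to 86.6. Without LSD 10 its log2 fold change was -0.10, and without Saline 4 it was -0.11. Rab33a, a Golgi Rab, was low in LSD 2 with 16.2 RPM against 19.2 to 21.8. Rab1a was high in Saline 2 with 146 RPM against 104 to 124, and Rab6a was high in LSD 8 with 546 RPM against 414 to 479. Without the rat in question, none of Rab26, Rab33a, Rab1a and Rab6a passed the threshold, with adjusted p from 0.104 to 0.303.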

How the results depend on the processing

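Of 104 values of the 13 Rab genes past the threshold under 8 other settings, 92 kept direction and call and 12 lost the call, and none changed sign. Of 260 values with 1 rat left out, 236 kept direction and call and 24 lost it, again with no change of sign. Leaving out 1 rat gave 3 to 5 Rab genes higher and 7 to 14 lower, 659 to 1681 of all genes higher and 907 to 1867 lower, and 13 to 29 regulators higher and 4 to 16 lower. The counts over all genes and regulators were highest without Saline 2. These counts moved by over 1.5 times without LSD 8 (all 4 counts) or Saline 4 (all but all genes lower). They also did so without Saline 2 (all genes higher, regulators lower), or LSD 2, LSD 7 or Saline 5 (regulators lower). The count of Rab genes higher moved by over 1.5 times without Saline 2 alone. Only 3 Rab genes higher and 7 lower were called without the filter on low counts, and 3 and 12 with DESeq2. The share of all genes called was 7.13% of 25199 without the filter and 18.4% of 16605 with DESeq2. Over all genes, 605 were higher with the span correction, and 836 were lower without the filter and 858 with total reads as scaling. Regulators were higher for 7 with the span correction, and lower for 4 without the filter, 6 at equal depth and 4 with total reads. Signs changed where estimates were close to 0. Rab11a log2 fold change was 0.0095 with total reads. Rab27a log2 fold change was -0.012 with the span correction and -0.00101 (without Saline 8) to 0.0832 with 1 rat left out. Rab3b to Rab3d log2 ratio was -0.0573 to 0.0377 with 1 rat left out, above 0 without LSD 3, LSD 4 or LSD 5. The causes were not tested. Rats that share a replicate number deviated together in 6 of 10 pairs (correlation over 0.1, range -0.231 to 0.421), and 3 of 20 rats correlated best with their own number, so the numbers were not taken to pair the rats. With the replicate block 1355 of all genes were higher and 1606 lower, and 3 Rab genes were higher and 9 lower, as Rab35 did not pass (-0.12, adjusted p = 0.0583). In the paired sign-flip test 7 of 18 ratios passed, with Rab11a to Rab11b added (exact permutation adjusted p = 0.0452). With a pseudocount of 0.1 there were 6. Depth limits Rab38, Rab37, Rab20, Rab32 and Rab44, whose counts were lowest.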

Other observations

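Some regulators outside the rule for named genes were picked after their values were seen. Both Rab escort proteins, which present new Rab proteins to the prenylation enzyme, were higher in LSD-treated rats. Chm ranged from 11.1 to 17.0 RPM with a median of 13.1 against 6.10 to 13.9 with a median of 9.62 in controls (log2 fold change 0.42, adjusted p = 0.0309). Chml ranged from 3.40 to 5.33 RPM with a median of 4.46 against 2.62 to 4.98 with a median of 3.23 (log2 fold change 0.35, adjusted p = 0.04996). Rilp, the effector by which Rab7 recruits dynein to late endosomes, was lower (log2 fold change -0.38, adjusted p = 0.0284), as was its relative Rilpl2, which binds phosphorylated Rabs (-0.19, adjusted p = 0.0496). Chml and Rilpl2 passed narrowly. Whether the calls of Chm, Chml, Rilp and Rilpl2 held in other settings was not examined gene by gene. Of the regulators of Rab3, Madd, Rab3gap1 and Rab3gap2 did not pass. The exchange factor Madd differed by 0.09 on the log2 scale (adjusted p = 0.525). Of the subunits of its GTPase-activating complex, Rab3gap1 was at -0.00, with a 95% confidence interval from -0.10 to 0.09, and Rab3gap2 was at 0.17 (SE 0.0693, adjusted p = 0.0879), with 7 LSD-treated rats above every control.

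The 3 up-regulated Rab genes varied more among controls than among LSD-treated rats. This was not particular to them. The median coefficient of variation over the family was 10.1% in controls and 7.91% in LSD-treated rats. The coefficient of variation of Rab3c was 22.4% in controls and 13.2% in LSD-treated rats, that of Rab27b was 18.3% and 9.80%, and that of Rab30 was 20.01% and 10.4%. This difference in spread was not tested.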
